A study of Mus musculus with 12 samples.

Results

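The comparison described here set G1E-ER4 cells that carried active SREBP2 against cells that carried an empty vector, both with the transcription factor GATA1 switched on. G1E-ER4 is a mouse erythroid progenitor line made from embryonic stem cells that lack their own GATA1, and its only GATA1 is a fusion with the estrogen receptor domain that binds hormone, which β-estradiol (EST) turns on. Members were the 3 SREBP2+EST libraries, numbered 1, 2 and 5, and the 3 Vector+EST libraries, numbered 1, 3 and 5, chosen by their group names in the header of the count table, and they made up 6 of the 12 mRNA libraries of the series. Cells of both groups were transduced with retrovirus for 24 h and then given EST for 6 h, and the groups differed in the insert alone, which was either none or residues 1 to 468 of SREBP2. The stated EST dose differs between sources, being 500 nM in the protocol of each sample but 200 nM in the overall design. The other 6 libraries, SREBP2 and Vector, were the same transductions without EST and are used only as a second setting. All 4 groups were of 1 line on a C57BL/6J background, lacked endogenous GATA1, carried the fusion and were cultured with SCF and Epo. Nothing in the labels says that libraries of a group came from separate cultures, so p-values measure the spread between these libraries, which may be technical. The study's methods name no species for the insert of this vector, while its supplement speaks of human SREBP2 mRNA in the same line transduced with active SREBP2.

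SREBP2 is a transcription factor that is held in the membrane of the endoplasmic reticulum with its escort SCAP. When cell sterols fall, it moves to the Golgi, is cut by the site-1 and site-2 proteases, and its freed N-terminal part enters the nucleus and binds sterol regulatory elements in the promoters of cholesterol synthesis and uptake genes. The fragment used here is already free and needs no cleavage. GATA1 drives the maturation of red cell precursors, raising hemoglobin and red cell membrane genes and lowering progenitor genes such as Gata2 and Kit.

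The labels give the cell type as embryonic stem cells. Against that label, the markers Pou5f1 and Zfp42 were absent from the table, and the 7 embryonic stem cell markers that it did hold summed to at most 1.29 CPM (the unit of all levels here, a gene's count relative to a fixed library size after scaling) in any EST library, while Alas2, the erythroid enzyme of heme synthesis, stood between 129.8 and 186 CPM. EST libraries held between 18700959 and 19112368 estimated counts. The first principal component of the 6 libraries took 62.2% of the variance and separated the groups, and the second took 12.8% and separated Vector+EST 5 from the other 5. SREBP2+EST 1 differed most from its own group, by a median of 0.0990 log2 units per gene against 0.0726 and 0.0748 for SREBP2+EST 2 and 5. Without EST, SREBP2 1 differed most from its group, by 0.121 log2 units. In sums over some lists, SREBP2+EST 1 stood with SREBP2 3 and 5, and SREBP2 1 with SREBP2+EST 2 and 5. Myeloid and mast cell markers summed to 1186, 1226 and 1194 CPM in the former and to 859, 831 and 858 CPM in the latter. Sums of the interferon and stromal lists did not divide this way. The cause was not tested. Transcripts at trace level also divided the libraries otherwise than the groups did. Col1a1, a collagen of connective tissue cells, stood at 6.50, 13.8 and 6.84 CPM with SREBP2 and at 13.4 CPM in Vector+EST 5, while Vector+EST 1 and 3 had none of it. The 21 stromal markers in the table summed to between 41.5 and 61.4 CPM in SREBP2+EST and to 23.1, 24.0 and 56.9 CPM in Vector+EST 1, 3 and 5. Between 11 and 13 of them were at 0 in Vector+EST 1 and 3, against 1 or 2 in the other 4 libraries. Their part in the results was not tested, and counts without SREBP2+EST 1 and without Vector+EST 5 are given below.

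Srebf2 (Entrez 20788, RefSeq span chr15:82147269-82205379, build GRCm38.p6), the overexpressed gene, checked the labels of the insert but not those of EST. Its level was 814, 801 and 809 CPM in SREBP2+EST libraries 1, 2 and 5 and 436, 432 and 456 CPM in Vector+EST libraries 1, 3 and 5, the order used for all values below. Each SREBP2+EST library was above each Vector+EST library, by a log2 fold change of 0.87 ± 0.03 (SE; adjusted p = 5.76e-12). Reads of the cell's own gene and reads of the insert that align to it cannot be told apart in this count.

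With active SREBP2 more genes were higher than lower, except under scaling by library totals alone, and the higher genes differed by more. Of 11177 genes tested, 1560 (14.0%) were higher and 888 (7.94%) were lower with SREBP2 at an adjusted p under 0.05. Over 1.5-fold, 561 genes (5.02%) were higher and 30 (0.268%) were lower. The shares of 14.0% higher and 7.94% lower are the background to every list below. The median fold of the higher genes was 1.32 and that of the lower genes was 1.15. Of the higher genes, 249 changed between 1.5- and 2-fold, 203 between 2- and 4-fold and 109 by more than 4-fold. Of the lower genes, 717 changed by less than 1.2-fold. The split of higher against lower calls depended on the scaling, since higher genes were 63.7% of all calls here but 55.1% when libraries were scaled by relative log expression, 55.8% under DESeq2 and 42.2% under library totals alone. Without SREBP2+EST 1 there were 1513 higher and 927 lower genes, without Vector+EST 5 there were 1441 and 694, and without both there were 1420 and 826. Lower calls fell to 572, 554, 518 and 510 without SREBP2+EST 2, SREBP2+EST 5, Vector+EST 1 and Vector+EST 3. Regardless of the test, the libraries of the groups did not overlap for 2292 higher genes (20.5%) and 1961 lower genes (17.5%), with 560 of the 561 genes higher over 1.5-fold among the former and 18 of the 30 lower over 1.5-fold among the latter.

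**Figure D1:**
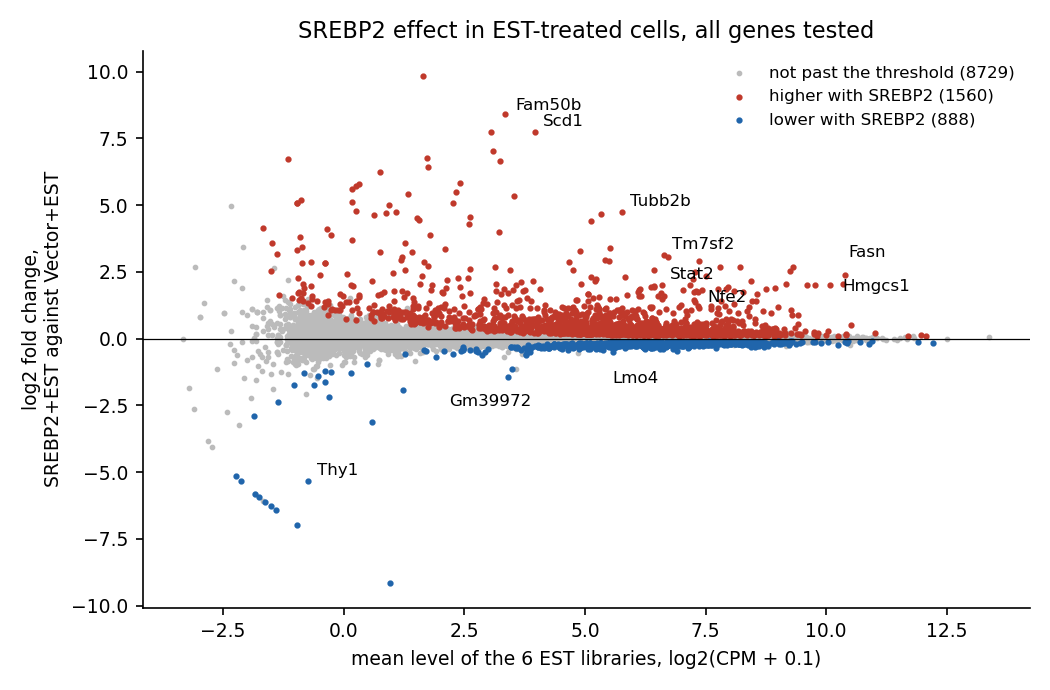
Each point is 1 of the 11177 genes tested, with its mean level in the 6 EST libraries on the x axis (log2 of CPM + 0.1) and its log2 fold change between SREBP2+EST and Vector+EST on the y axis. Red points (1560) were higher and blue points (888) lower at an adjusted p under 0.05; large rises occur at all but the highest levels, while large falls lie at low levels.

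Cholesterol synthesis genes rose as a whole group. The list held the 21 enzymes from acetyl-CoA to cholesterol, all were tested, and all 21 were higher over 1.5-fold. Their median log2 fold change was 1.90, against -0.00 over all genes tested, and it ranged from 0.67 (Lbr) to 3.14 (Tm7sf2). This list is that of the factor's known targets and was chosen with results known, so the count is a description. Every one of the 21 genes was higher in each SREBP2+EST library than in any Vector+EST library, and all 21 calls were kept without SREBP2+EST 1 and Vector+EST 5 together.

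Hmgcs1, the HMG-CoA synthase of the early pathway, stood at 1817, 1679 and 1682 CPM in SREBP2+EST and at 432, 418 and 425 CPM in Vector+EST. Its log2 fold change was 2.02 ± 0.04 (adjusted p = 7.08e-16), and the groups were far apart. Sqle, the squalene epoxidase that starts the sterol branch, read 501, 444 and 469 CPM with SREBP2 and 209.8, 204 and 211 CPM with vector, or 1.18 ± 0.05 log2 units apart (adjusted p = 5.45e-12). The largest rises lay elsewhere in the pathway. Tm7sf2, a sterol reductase of the endoplasmic reticulum, went from 21.2, 18.9 and 20.5 CPM to 177, 173 and 185 CPM, or 8.80-fold (adjusted p = 1.98e-15). Pmvk and Mvd, the consecutive phosphomevalonate kinase and mevalonate diphosphate decarboxylase steps, rose 6.36-fold and 6.35-fold (adjusted p = 5.67e-15 and 2.40e-15). Mvd was at 509, 516 and 511 CPM against 74.5, 79.1 and 88.3 CPM, so its SREBP2+EST libraries differed from each other by less than its Vector+EST libraries did. Lbr, which joins a sterol reductase to a nuclear lamina anchor, had the smallest rise, at 377 ± 4.25 against 236 ± 4.41 CPM (SD, n = 3; adjusted p = 3.69e-10).

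**Figure D2:**
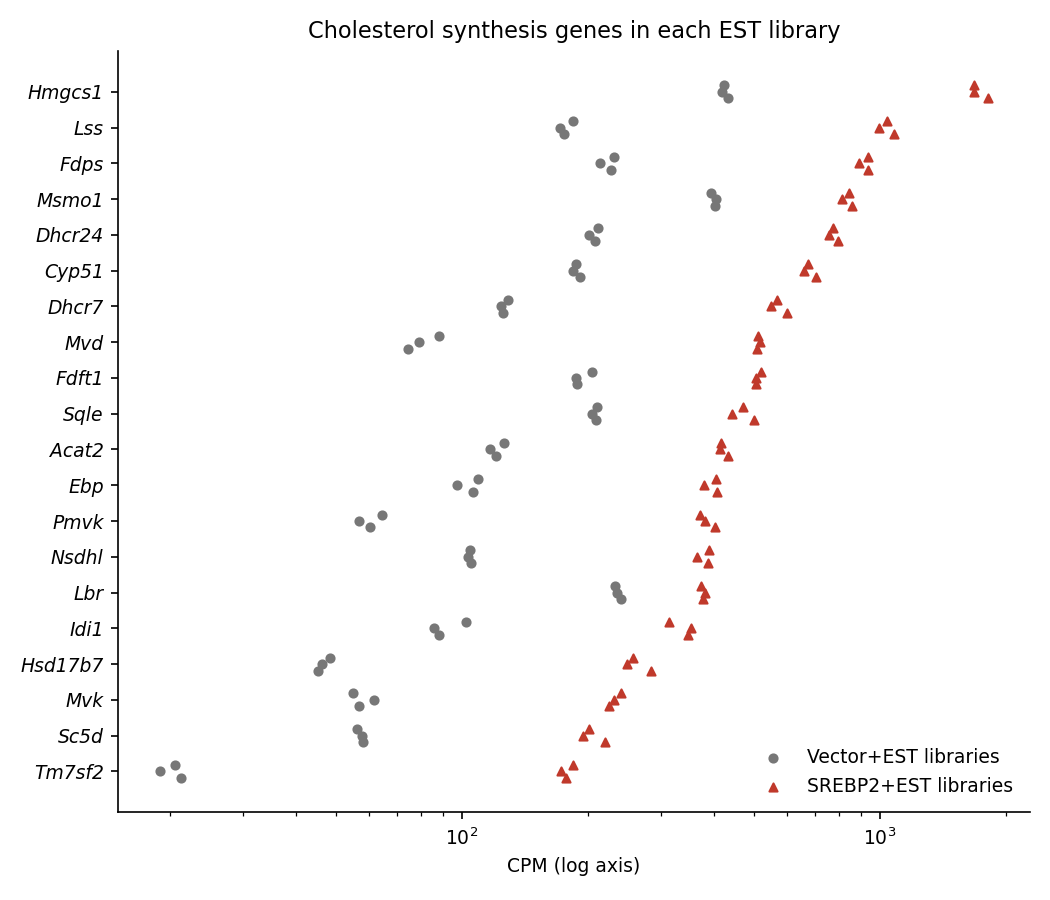
Level of 20 of the 21 cholesterol synthesis genes, in CPM on a log axis, in the 3 Vector+EST libraries (grey circles) and the 3 SREBP2+EST libraries (red triangles), ordered by their level with SREBP2. The 2 sets of points do not overlap for any gene, and the gap is widest for Tm7sf2 and narrowest for Lbr.

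Promoters of 4 lipid genes are shown because all 4 hold the letters bound by NF-Y, a known partner of SREBP2. Hmgcs1 also holds TCACNCCAC, the letters searched for as the sterol regulatory element that SREBP2 binds. Each line gives the 250 bases before the RefSeq start (GRCm38.p6, 5′ to 3′ on the gene's strand). Capitals mark CCAAT, the NF-Y letters, on either strand, and in Hmgcs1 the run of 9 capitals marks TCACNCCAC. The other 3 windows lack this exact string, and variant forms of the element were not searched. In Fasn, CCAAT on the 2 strands overlaps in 1 run of 8 capitals. Hmgcs1 lies at chr13:119690101-119690350 (+), Mvd at chr8:122443423-122443672 (-), Lss at chr10:76531355-76531604 (+) and Fasn at chr11:120824548-120824797 (-).
Hmgcs1: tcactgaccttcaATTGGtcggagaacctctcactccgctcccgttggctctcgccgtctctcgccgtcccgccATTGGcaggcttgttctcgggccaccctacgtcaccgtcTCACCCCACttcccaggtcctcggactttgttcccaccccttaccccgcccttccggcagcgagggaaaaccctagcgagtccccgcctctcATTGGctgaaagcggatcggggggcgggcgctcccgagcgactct
Mvd: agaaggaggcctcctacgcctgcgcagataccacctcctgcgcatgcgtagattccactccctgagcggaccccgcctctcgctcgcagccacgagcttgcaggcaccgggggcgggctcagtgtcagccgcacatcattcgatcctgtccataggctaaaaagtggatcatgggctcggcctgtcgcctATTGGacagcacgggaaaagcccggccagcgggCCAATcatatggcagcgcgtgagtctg
Lss: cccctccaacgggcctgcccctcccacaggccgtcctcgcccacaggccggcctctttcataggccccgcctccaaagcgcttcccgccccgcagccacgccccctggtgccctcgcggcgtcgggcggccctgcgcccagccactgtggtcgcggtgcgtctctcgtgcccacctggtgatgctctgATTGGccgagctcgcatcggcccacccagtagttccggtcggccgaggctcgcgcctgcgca
Fasn: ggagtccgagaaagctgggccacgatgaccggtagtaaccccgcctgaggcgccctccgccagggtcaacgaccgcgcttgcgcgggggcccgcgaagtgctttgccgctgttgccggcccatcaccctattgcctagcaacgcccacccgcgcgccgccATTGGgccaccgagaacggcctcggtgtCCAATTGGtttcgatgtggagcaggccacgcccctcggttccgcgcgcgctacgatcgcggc

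Promoter sequences, taken as 250 bases before to 50 bases after the start, were found in RefSeq for 16 of the 21 cholesterol synthesis genes and for 9059 of the genes tested. CCAAT, searched on both strands, stood in 15 of the 16 (93.8%), against 44.5% of genes tested and 41.1% of all 27025 genes with a promoter. It was in 57.0% of the promoters of genes higher over 1.5-fold, in 53.5% of those of all higher genes, in 43.3% of lower genes and in 43.0% of genes not past the threshold. The S phase and replication list, whose called genes were lower, held it in 14 of 22 (63.6%). TCACNCCAC, also searched on both strands, was in 1 of the 16, Hmgcs1, where it starts 137 bases before the start, and in 1.44% of all genes with a promoter. Its share was 1.98% among genes higher over 1.5-fold, 2.73% among all higher genes, 1.32% among all genes tested, 1.10% among lower genes and 1.09% among genes not past the threshold. The E-box CACGTG was in 12.5% of higher, 12.1% of lower and 11.8% of all tested genes, and the GATA letters AGATAA were in 8.64%, 5.23% and 8.40%. These are matches of letters in a window and not binding sites.

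Genes of sterol sensing and uptake rose in part. Of 14 tested, 9 were higher and 0 lower, 6 of them over 1.5-fold, with a median log2 fold change of 0.57. The groups stood far apart for Stard4, a carrier of cholesterol between membranes, which rose 3.34-fold to 479 ± 27.4 CPM (SD, n = 3; adjusted p = 4.11e-14). Lrp8, a lipoprotein receptor, Mylip, a ubiquitin ligase, Npc2, a lysosomal cholesterol carrier, Tmem97 and Srebf1 were also higher. Srebf1, the gene of the relative that drives fatty acid synthesis, rose by 0.32 on the log2 scale, from 144 ± 4.46 to 179.6 ± 6.81 CPM (SD, n = 3; adjusted p = 5.95e-05). The escort and protease genes Scap, Mbtps1 and Mbtps2, the retention factor Insig2 and the lysosomal exporter Npc1 did not pass the threshold, with log2 fold changes from -0.12 to 0.02, although 1 gene of the list passed as lower under each of the other scalings. Insig1, the other retention factor and a known SREBP target, was at or under 0.108 CPM in all 12 libraries, below the level of 3 counts (0.157 CPM), and no change was detectable.

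Fatty acid synthesis genes, which the related SREBP1 is best known to control, rose widely. Of 27 tested, 20 were higher, 17 of them over 1.5-fold, and 0 were lower, with a median log2 fold change of 1.02. Scd1, a desaturase that makes monounsaturated fatty acids, had the largest rise of the list, from 0.206, 0.0523 and 0.159 CPM to 32.3, 28.9 and 31.3 CPM (log2 fold change 7.72 ± 0.16, adjusted p = 2.78e-15). Scd2, the desaturase at the higher count in these cells, rose 4.15-fold, from 509 ± 23.4 to 2109 ± 44.4 CPM (SD, n = 3; adjusted p = 5.24e-16). The synthase Fasn stood at 2412, 2117 and 2166 CPM against 449, 405 and 439 CPM, or 5.17-fold (adjusted p = 6.22e-15), with no overlap between groups. Elovl6, an elongase that acts after Fasn, rose 7.44-fold to 292 ± 20.7 CPM (adjusted p = 2.40e-15). The enzymes that supply acetyl-CoA and reducing power rose with them, Acly by 4.07-fold, Acss2 by 3.22-fold, the citrate carrier Slc25a1 by 3.40-fold and Me1 by 3.24-fold (adjusted p = 1.89e-13, 3.25e-12, 1.19e-12 and 1.36e-13). The desaturases Fads1, Fads2 and Fads3, which make polyunsaturated fatty acids, rose between 2.03- and 2.22-fold (adjusted p at most 1.08e-08). Genes of triglyceride assembly did not follow as one group, since Lpin1 rose 2.44-fold (adjusted p = 3.94e-13) while Gpam, Agpat2 and Dgat1 had log2 fold changes of -0.05, 0.10 and 0.08 and did not pass the threshold.

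Of 9 tested genes of cholesterol efflux and storage, 2 were higher and 0 lower, or 2 and 2 under library totals. Over all genes tested, 14.0% were higher and 7.94% lower. Abca1, the pump that hands cholesterol to apolipoprotein A-I, stood at 6.50, 5.17 and 4.90 CPM against 1.80, 1.05 and 1.27 CPM (log2 fold change 2.00 ± 0.18, adjusted p = 2.91e-07), and Lpcat3, which remodels membrane phospholipids, rose 1.68-fold (adjusted p = 2.63e-10). Among PPAR targets and genes of lipid use, 8 of 19 tested were higher and 0 lower (3 lower under library totals), with a median log2 fold change of 0.23. The rises were small. Fabp5, a fatty acid carrier, rose 1.61-fold, the lipoprotein lipase gene Lpl 1.35-fold and Acadl, which starts long-chain fatty acid oxidation, 1.34-fold (adjusted p = 1.73e-07, 2.09e-06 and 5.37e-07). Under library totals alone, 2 efflux genes and 3 PPAR genes passed as lower.

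**Figure D3:**
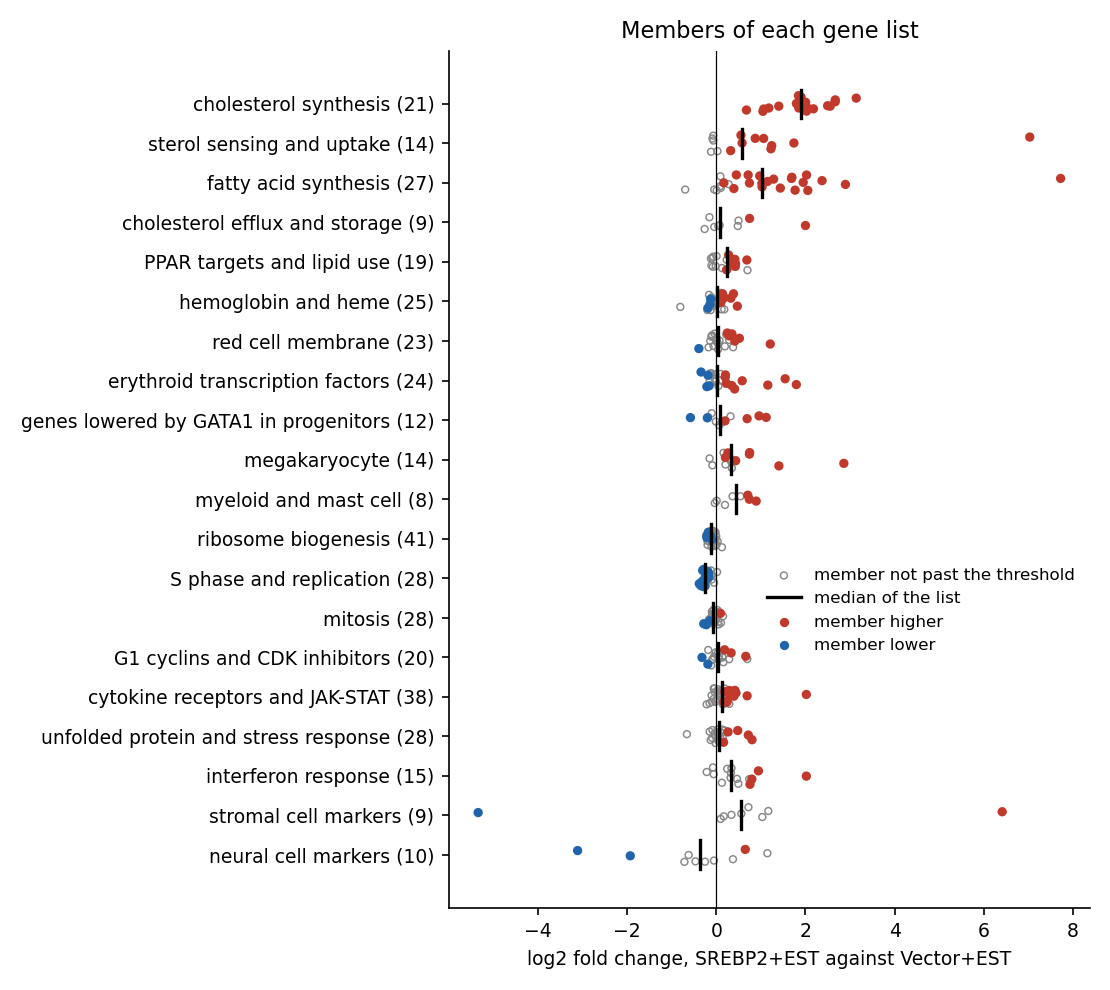
Log2 fold change between SREBP2+EST and Vector+EST (x axis) of each tested member of the lists with 8 or more tested genes, whose number stands in brackets. Filled red and blue points passed the threshold as higher and lower, open points did not, and the bar is the list median; cholesterol and fatty acid synthesis lie furthest right, and S phase and replication lies left of 0.

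Among genes averaging at least 3 on the log2 CPM scale, the largest rises included Fam50b, Ppef1, Scd1, Prune2, Lmtk3, Tubb2b, Myh7b, Ppfia3 and Tlcd3b. Apart from Scd1, these are not lipid genes of the lists above. Fam50b read 19.9, 21.4 and 19.2 CPM with SREBP2 and was at or under 3 counts in all Vector+EST libraries, so it was at least 128.5-fold higher (adjusted p = 1.36e-13). Ppef1, a protein phosphatase with calcium-binding EF hands, read 17.6, 15.4 and 16.3 CPM and was at least 104.6-fold higher on the same ground (adjusted p = 4.44e-12). Tubb2b, a β-tubulin known from developing neurons, stood at 108, 105 and 101 CPM against 3.45, 3.76 and 4.51 CPM, or 4.74 ± 0.08 log2 units apart (adjusted p = 6.51e-16). Myh7b, a myosin heavy chain, stood at 90.9, 72.1 and 70.4 CPM against 3.04, 3.71 and 2.44 CPM (25.3-fold, adjusted p = 1.51e-12). For all 4 genes the lowest SREBP2+EST library was far above the highest Vector+EST library. Prune2, the kinase gene Lmtk3, the liprin gene Ppfia3 and Tlcd3b rose 102-, 40.9-, 21.2- and 16.0-fold (adjusted p = 1.74e-12, 2.28e-13, 5.06e-14 and 2.93e-10). In total, 31 of the 561 genes higher over 1.5-fold were at or under 3 counts in every Vector+EST library, as were 51 of all 11177 genes tested. Genes at that level were tested only where other libraries raised them past the filter, so their rises are partly fixed in advance. Of the 561, 70 belonged to any of the 23 gene lists.

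Genes of the red cell program moved little and in both directions. Of 25 hemoglobin and heme genes tested, 7 were higher and 3 lower, none over 1.5-fold, against 14.0% and 7.94% of all genes, and the list median was 0.01, a value that turned negative under both other scalings. The balance depended on the scaling too, with 5 higher and 3 lower under relative log expression and 4 higher and 5 lower under library totals. Alas2, the first enzyme of erythroid heme synthesis, stood at 186, 163 and 169 CPM against 142, 129.8 and 141 CPM (1.25-fold, adjusted p = 0.000507). Hbb-b2, a β-globin gene, stood at 111, 85.6 and 93.6 CPM against 66.0, 71.3 and 71.9 CPM, a log2 difference of 0.47 ± 0.12 (adjusted p = 0.00870). Its call was lost without SREBP2+EST 1 and Vector+EST 5 together (adjusted p = 0.0568). Reads of globin genes can be shared by near-identical copies, so single globin values are uncertain. Hbb-b1 read 2870.0, 2549 and 2933 CPM against 2878, 2944 and 2856 CPM and did not pass the threshold (adjusted p = 0.562). Hba-a1, an α-globin gene, was 1.09-fold lower at 1589 ± 75.0 against 1737 ± 26.0 CPM (SD, n = 3; adjusted p = 0.0467), but the call was lost in 6 of the 12 fits that each left out 1 library, those without SREBP2 3, SREBP2+EST 1 or 2, or any Vector+EST library (adjusted p up to 0.140). Its copy Hba-a2 read 144, 136 and 142 against 157, 140.3 and 158 CPM and did not pass (adjusted p = 0.133), but was called lower under library totals (adjusted p = 0.0223) and without Vector+EST 3 (adjusted p = 0.0311). Higher calls on this list fell to 3 without SREBP2+EST 1, without Vector+EST 1 or without Vector+EST 3, and lower calls to 0 without Vector+EST 5, to 1 without Vector+EST 1 or SREBP2+EST 2, and to 2 without SREBP2+EST 5 or Vector+EST 3. In the red cell membrane list, 6 of 23 tested genes were higher and 1 lower, against the same 14.0% and 7.94% of all genes. Add2, a skeleton protein that caps actin, was the furthest, at 403, 297 and 305 CPM against 145, 141 and 149 CPM (log2 fold change 1.21 ± 0.11, adjusted p = 5.37e-07), and the glucose transporter gene Slc2a1 was lower, at 27.1, 29.3 and 33.1 against 39.3, 39.2 and 38.9 CPM (adjusted p = 0.000230). Slc4a1, the anion exchanger band 3, read 2.86 ± 0.355 CPM with vector and 3.49 ± 0.316 CPM with SREBP2 (SD, n = 3) and did not pass (adjusted p = 0.234).

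Among 24 erythroid transcription factors, 9 were higher and 4 lower (2 lower without SREBP2+EST 2 or Vector+EST 5), with a list median of 0.02 that turned negative under both other scalings. Nfe2, a partner of small MAF proteins at globin genes, stood at 261, 198 and 219 CPM against 102, 94.3 and 108 CPM, or 1.15 ± 0.11 log2 units apart (adjusted p = 4.38e-07). Its relative Nfe2l1 rose further, from 68.4, 73.2 and 71.6 CPM to 253, 250.2 and 236 CPM (3.47-fold, adjusted p = 1.14e-14). Small MAF genes rose along with them, Maff by 1.54, Mafg by 0.58 and Mafk by 0.21 log2 units, as did Bach1, a heme-sensing repressor that also pairs with them, by 0.35 (adjusted p = 5.95e-06, 1.64e-08, 0.00771 and 3.85e-05). Bcl11a, a repressor of embryonic and fetal globin, was lower at 139, 114 and 119 against 153, 158 and 162 CPM (adjusted p = 0.00732), and Ikzf1 was 1.14-fold lower (adjusted p = 0.00174). Lower calls fell to 2 without Vector+EST 5 or without SREBP2+EST 2. Klf1, a regulator of red cell genes, stood at 330.1 ± 24.1 against 335 ± 22.4 CPM and Epor, the erythropoietin receptor, at 61.6 ± 5.84 against 63.0 ± 6.98 CPM (SD, n = 3), neither past the threshold (adjusted p = 0.879 and 0.876). Gata1 reads, which include the fusion, overlapped between groups at 577, 469 and 513 and 467, 419.8 and 471 CPM. Their log2 fold change of 0.20 ± 0.07 passed narrowly (adjusted p = 0.0429). It did not pass under DESeq2 or either other scaling (adjusted p = 0.0520, 0.0716 and 0.0777), and the call was lost in 7 of 12 fits without 1 library, among them those without SREBP2+EST 1 (adjusted p = 0.194) and without Vector+EST 3 (adjusted p = 0.200), the others being those without SREBP2+EST 5, Vector+EST 1 or any Vector library.

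Genes that GATA1 is known to lower in progenitors divided. Of 12 tested, 4 were higher and 2 lower, with a median log2 fold change of 0.09. Without SREBP2+EST 1 they were 2 higher and 3 lower with a median of -0.01, and without Vector+EST 5 as well, 2 higher and 1 lower with a median of -0.05. Gata2, at whose own gene GATA1 displaces the GATA2 protein, was lower with SREBP2 at 130.4, 130.0 and 145 against 156, 151 and 160.0 CPM (log2 fold change -0.20 ± 0.05, adjusted p = 0.00453), a call lost without SREBP2+EST 1 and Vector+EST 5 together (adjusted p = 0.0525). Spi1, which encodes the myeloid factor PU.1, was higher at 71.9, 73.5 and 78.1 against 36.5, 40.5 and 38.0 CPM (1.94-fold, adjusted p = 1.54e-08). Kit, the receptor of stem cell factor, read 253, 227 and 226 against 256, 252 and 252 CPM and did not pass (adjusted p = 0.114), although it passed as lower under library totals alone (adjusted p = 0.0168) and without SREBP2+EST 1 (adjusted p = 0.0104). Myc read 168, 110.2 and 118 against 128, 122 and 128 CPM, so SREBP2+EST 1 stood above its group, and no difference passed (adjusted p = 0.793).

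Markers of sister blood lineages that passed the threshold were higher. Of 14 megakaryocyte genes tested, 7 were higher and 0 lower, with a median log2 fold change of 0.32, but 4 were higher without SREBP2+EST 1 or without Vector+EST 3, and 3 without SREBP2+EST 1 and Vector+EST 5 together. Pf4, a platelet chemokine, stood at 50.4, 41.9 and 41.2 CPM against 5.72, 6.59 and 6.05 CPM (7.26-fold, adjusted p = 4.54e-11), with the groups far apart. Plek, a platelet protein kinase C substrate, stood at 29.9, 21.2 and 18.6 against 14.5, 14.4 and 12.6 CPM (1.68-fold, adjusted p = 0.00584), a call lost without SREBP2+EST 1 and Vector+EST 5 together (adjusted p = 0.0785). Of 8 myeloid and mast cell genes tested, out of 29 listed, 3 were higher and 0 lower. Among those not tested, Mpo, Elane, Ctsg, Csf1r and Lyz2 stood at or under 0.3072 CPM in all 12 libraries. Csf2rb, the shared β chain of the IL-3, IL-5 and GM-CSF receptors, stood at 1104, 759 and 781 CPM against 492, 456 and 475 CPM, with SREBP2+EST 1 highest (1.86-fold, adjusted p = 8.61e-05). The granule proteoglycan gene Srgn rose 1.63-fold and the mast cell protease gene Cpa3 1.67-fold (adjusted p = 0.000116 and 0.000969). The 23 megakaryocyte markers in the table summed to between 279.5 and 331 CPM in SREBP2+EST and to between 203 and 209 CPM in Vector+EST. Among those not tested, Vwf, Selp and Clec1b stood at or under 0.05307 CPM in all 12 libraries. Ppbp, also not tested, stood at 0.704, 0.431 and 0.485 CPM with SREBP2 and at 0.0516, 0 and 0 CPM with vector. In bulk RNA, more cells of a type and more RNA per cell cannot be told apart.

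Of 38 genes of cytokine receptors and JAK-STAT signaling, 11 were higher and 0 lower, with a median log2 fold change of 0.12, against 14.0% and 7.94% of all genes. Library totals gave 10 higher and 2 lower, and leaving out SREBP2+EST 1 gave 10 higher and 1 lower. Stat2, which carries interferon signals, had by far the largest rise of the list, from 38.2, 36.5 and 39.5 CPM to 152, 157 and 154 CPM (4.05-fold, adjusted p = 2.10e-15). The other 10 rose less. Il4ra, a receptor chain for interleukin 4, stood at 5.69, 5.23 and 5.98 against 3.71, 3.82 and 2.92 CPM (1.61-fold, adjusted p = 0.00313), and the STAT5 target and signaling brake Cish stood at 46.0, 40.6 and 43.9 against 32.4, 29.8 and 35.6 CPM (1.33-fold, adjusted p = 0.000841). The kinases Jak2, Jak3 and Tyk2 were higher by 0.17, 0.29 and 0.23 on the log2 scale, while Jak1, Stat5a and Stat5b were at 0.04, -0.04 and 0.02 and did not pass. Of 15 interferon response genes tested, 4 were higher, among them Stat2 again, the factor Irf1 (1.74-fold, adjusted p = 0.00156) and the antiviral enzyme gene Oas3 (1.92-fold, adjusted p = 0.00235), and 0 were lower. These counts stand against the same 14.0% and 7.94% of all genes.

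Genes of DNA replication fell together by a small amount. Of 28 S phase and replication genes, 22 were lower and 0 higher, against 7.94% of all tested genes called lower. The median log2 fold change was -0.25 and none fell over 1.5-fold. All 6 subunits of the MCM helicase were lower, from -0.31 (Mcm5) to -0.18 (Mcm4) on the log2 scale. Ccne2, a cyclin that opens S phase, had the largest fall of the list, at 34.8, 30.0 and 32.1 CPM with SREBP2 and 41.9, 44.3 and 40.1 CPM with vector (log2 fold change -0.38 ± 0.06, adjusted p = 0.000185). Cdc45, which completes the active helicase, stood at 70.0, 78.7 and 76.2 against 92.6, 95.3 and 97.2 CPM (adjusted p = 0.000101). In both genes each SREBP2+EST library lay below each Vector+EST library. Rrm2, Uhrf1, Pola1, Fen1, Lig1 and Pole did not pass the threshold. Between 17 and 23 genes of the list were lower in the fits that left out 1 EST library, and 20 without SREBP2+EST 1 and Vector+EST 5 together. Under a block on the header numbers, 12 were lower.

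**Figure D4:**
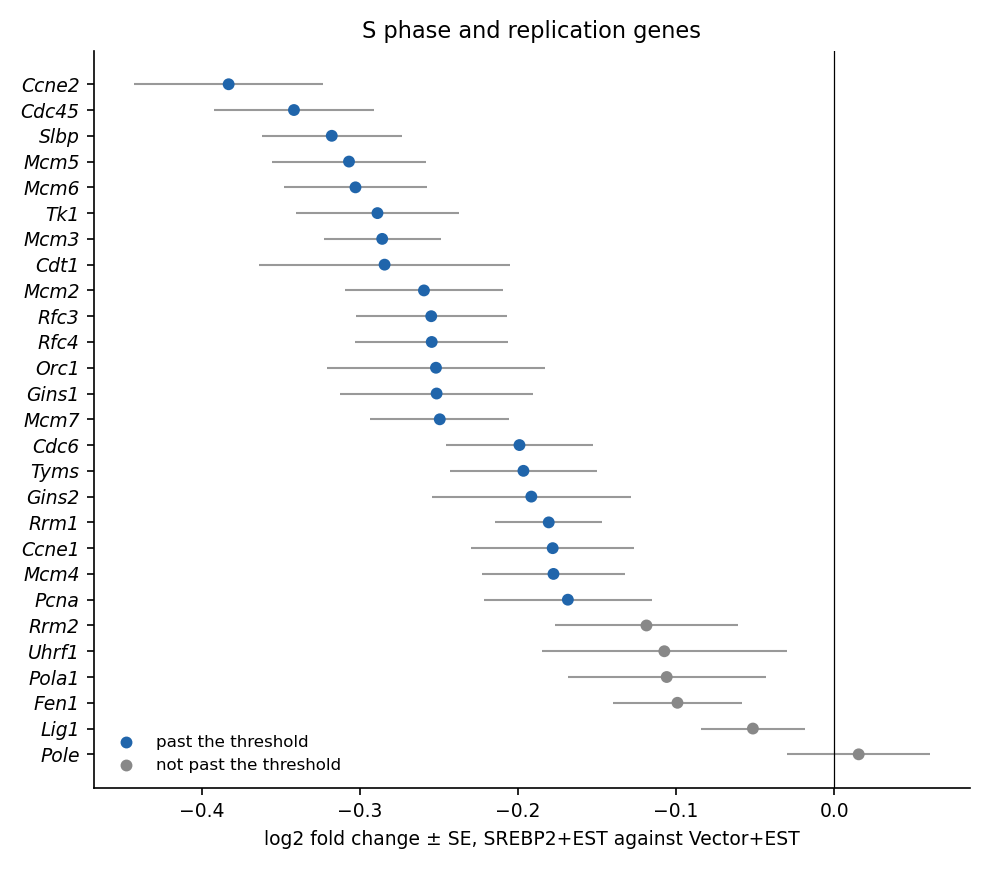
Log2 fold change (x axis, points, with the SE as bars) of 27 of the 28 S phase and replication genes between SREBP2+EST and Vector+EST. The 21 blue points passed the threshold and all lie left of 0, between -0.38 and -0.17, and the 6 grey points did not pass.

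Other cell growth lists moved less. Of 28 mitosis genes, 3 were lower and 1, the cyclin gene Ccna2, was higher, with a median of -0.07. The lower share is near the 7.94% of all genes, and the higher share is below their 14.0%. Ccna2 was not called without any 1 of SREBP2+EST 2 or 5 or Vector+EST 1, 3 or 5, nor under the other scalings, which gave 8 and 11 lower genes. Ttk, a kinase of the spindle checkpoint, was 1.22-fold lower and the kinesin gene Kif20a 1.17-fold lower (adjusted p = 0.00102 and 0.000848). Ribosome biogenesis genes numbered 5 lower and 0 higher of 41, with a median of -0.11, against 7.94% lower and 14.0% higher over all genes. That count depended on the scaling and on single libraries. It was 9 under relative log expression, 11 under DESeq2 and 16 under library totals, and 20 were lower without SREBP2+EST 1, while 1 was lower without SREBP2+EST 5 or without Vector+EST 3, 2 without Vector+EST 1 and 3 without SREBP2+EST 2. Npm1, a chaperone of the nucleolus, was the firmest of them, at 1751, 1748 and 1748 CPM against 1986, 2079 and 2023 CPM (log2 fold change -0.21 ± 0.03), with an adjusted p of 2.92e-05. Of 20 genes of G1 cyclins and CDK inhibitors, 3 were higher and 2 lower, shares near the 14.0% and 7.94% of all genes, and library totals gave 2 higher and 4 lower. The antiproliferative gene Btg1 rose 1.58-fold (adjusted p = 3.59e-05), and Rbl1 and Rbl2, relatives of the retinoblastoma gene, were 1.25- and 1.14-fold lower (adjusted p = 0.00319 and 0.0100), the latter not without SREBP2+EST 1 and Vector+EST 5 together (adjusted p = 0.0572).

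The largest falls were of another kind. Of the 30 genes lower over 1.5-fold, 5 had an average log2 CPM of at least 3, against 332 of the 561 higher genes, and 8 (26.7%) were predicted gene models, against 4.65% of all genes tested. For 12 of the 30, all SREBP2+EST libraries were at or under 3 counts. Gm39972, such a model, stood at 5.09, 6.63 and 5.28 CPM against 15.2, 15.2 and 15.6 CPM (log2 fold change -1.43 ± 0.12, adjusted p = 9.15e-08), and Gm46620 at 6.50, 7.81 and 6.52 against 13.6, 16.5 and 16.2 CPM (adjusted p = 3.38e-06). Gm46894 and Gm52787 had log2 fold changes of -0.59 and -0.61 (adjusted p = 0.00257 and 0.00499). H4bc24, a histone H4 gene named after its values were seen, was at 0 in the SREBP2+EST libraries and at 4.07, 3.24 and 3.77 CPM in Vector+EST. Of the 30, 14 followed the library split given above, with Vector+EST 5 nearer to SREBP2+EST than to Vector+EST 1 and 3, among them the predicted model Gm40814. Thy1, for example, a surface protein of neurons and connective tissue, read 0, 0 and 0.0539 CPM with SREBP2 and 1.49, 1.41 and 0.0531 CPM with vector, and Gfap, of astrocytes, read 4.54, 4.76 and 1.43 CPM with vector against 1.57, 0.539 and 0.700 CPM with SREBP2. By the same measure, 4 of the 561 higher genes followed that split. Of the 30 calls, 21 were kept without SREBP2+EST 1, 25 without Vector+EST 5 and 23 without both, while without Vector+EST 3 there were 16 genes lower over 1.5-fold.

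Among genes other than predicted models and averaging 3 or more on the log2 CPM scale, the largest falls were shallow. Lmo4, a LIM-domain cofactor that binds LDB1, stood at 33.4, 42.5 and 42.5 CPM against 54.7, 54.7 and 57.4 CPM, with SREBP2+EST 1 lowest (log2 fold change -0.49 ± 0.09, adjusted p = 0.000980). Sfxn2, a carrier of the inner mitochondrial membrane, stood at 10.7, 12.3 and 13.0 against 16.6, 16.9 and 17.0 CPM (adjusted p = 0.00183). Atad5, which removes PCNA from replicated DNA, was 1.37-fold lower, and Cdca7l 1.38-fold lower (adjusted p = 1.49e-05 and 0.000824). The galactokinase gene Galk1, the centriole gene Ccp110 and C2cd4a were 1.33-, 1.32- and 1.34-fold lower (adjusted p = 0.000558, 0.000252 and 0.00732). Zbtb12, Spns2 and Pigb completed these falls, and none of them was stable. Zbtb12 and Pigb each lost their call without any 1 of SREBP2+EST 2 or 5 or Vector+EST 1 or 5 (adjusted p up to 0.155 and 0.101), and Spns2 in 10 of the 12 fits without 1 library, those other than without SREBP2 1 or SREBP2 5 (adjusted p up to 0.171).

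The same insert was also compared without EST, where 7987 genes (71.5%) passed the threshold, 4214 (37.7%) higher and 3773 (33.8%) lower. The 2 SREBP2 effects share no library. By the paper's account, overexpressed SREBP2 brought the GATA1 fusion into the nucleus without EST. This setting is therefore not one in which GATA1 is known to be off in both groups. Of the 561 genes higher over 1.5-fold with EST, 452 (80.6%) were also higher without EST, 51 were lower and 58 did not pass. Of the 888 lower genes, 487 (54.8%) were also lower, 211 were higher and 190 did not pass. The difference between the 2 effects was tested as an interaction, which passed for 6591 genes (59.0%), 29.8% more positive and 29.2% more negative with EST. Among the 561, it was positive for 195, negative for 136 and not past the threshold for 230.

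Cholesterol synthesis genes were higher in both settings. All 21 were higher without EST too, with a median log2 fold change of 1.61 against 1.90 with EST, and the interaction was positive for 12 and negative for 3. Hmgcs1 stood at 749.8, 759 and 739.9 CPM in Vector libraries 1, 4 and 5 and at 1730.0, 1801 and 1826 CPM in SREBP2 libraries 1, 3 and 5, and with EST its means were 425 ± 7.03 CPM (vector) and 1726 ± 78.8 CPM (SREBP2; SD, n = 3; interaction 0.77 ± 0.05, adjusted p = 2.44e-09). Scd1 was higher in both settings, by 7.35 log2 units without EST, and its interaction of 0.38 ± 0.51 did not pass (adjusted p = 0.630). Nfe2 was at 263 ± 1.53 CPM in Vector and 247 ± 40.6 CPM in SREBP2 (SD, n = 3), so that without EST no effect passed (log2 fold change -0.09, adjusted p = 0.434), and the interaction was 1.25 ± 0.15 (adjusted p = 2.19e-06). Abca1 changed direction, from -0.79 without EST to 2.00 with EST (interaction 2.79 ± 0.22, adjusted p = 2.00e-08). Megakaryocyte genes had medians of -0.69 without and 0.32 with EST, and ribosome biogenesis genes of -0.92 and -0.11. The interaction was positive for 8 of 14 and 33 of 41 of them and negative for 3 and 4. S phase genes had medians of -0.35 and -0.25, with 11 positive and 6 negative interactions of 28. An interaction also holds the EST effect in vector cells. Summed ribosome biogenesis levels were 13300 to 13680 CPM in Vector and 8698 to 9079 CPM in Vector+EST. They were 7636 to 8624 CPM in SREBP2 and 7566 to 8656 CPM in SREBP2+EST. Cholesterol synthesis sums were 4097 to 4199 CPM in Vector and 3337 to 3453 CPM in Vector+EST. They were 11410 to 12230 CPM in SREBP2 and 11470 to 12150 CPM in SREBP2+EST.

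**Figure D5:**
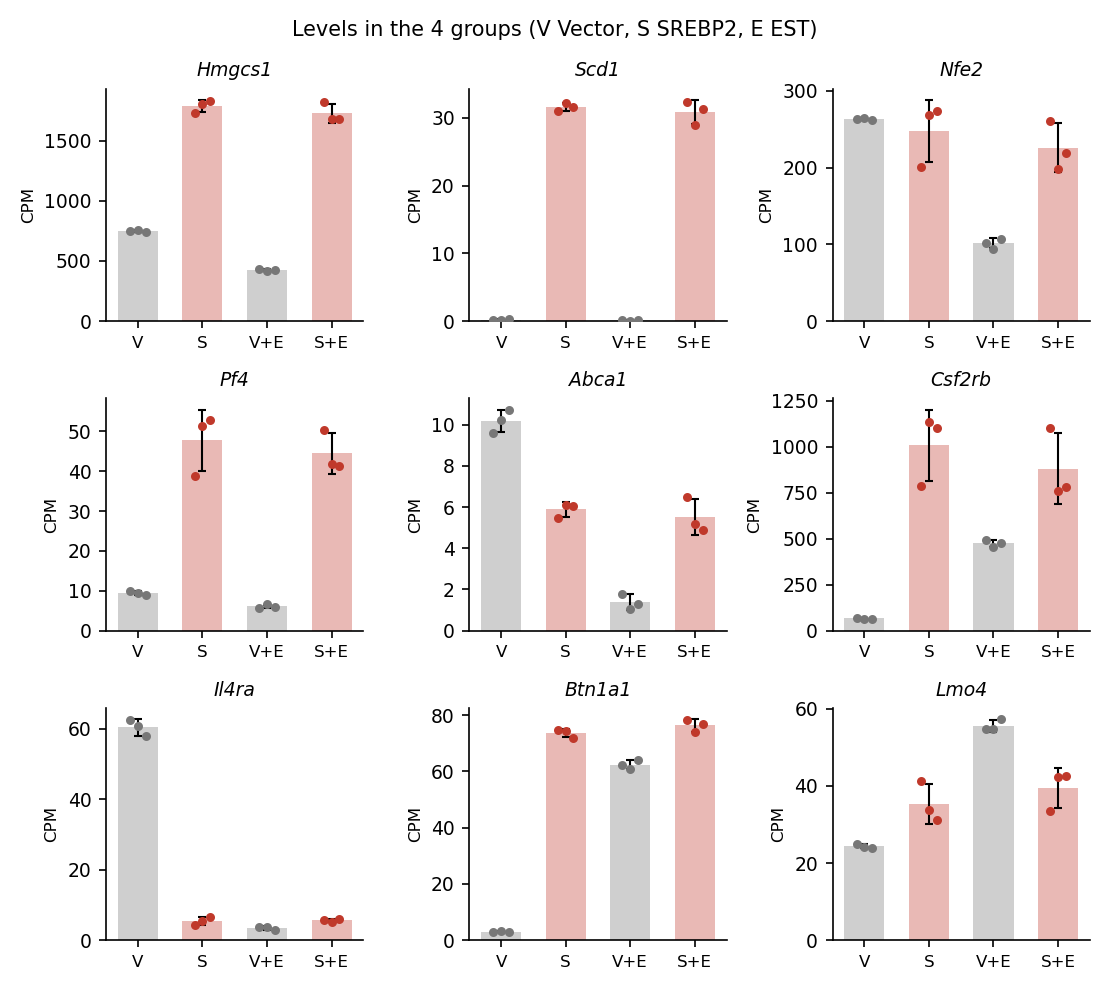
Levels of 9 genes in CPM in the 4 groups, as library values (points), mean (bars) and SD (n = 3). The red SREBP2 and SREBP2+EST bars are of similar height in each panel, while the grey Vector and Vector+EST bars differ in height for 8 of the 9 genes, all but Scd1.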

How the data were processed

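mRNA of G1E-ER4 cells was selected with oligo(dT) and read as single ends on a DNBSEQ platform. As deposited by the authors, the gene table holds estimated counts without normalization (17210 genes, 12 libraries). The submitters' processing notes name HISAT2 2.0.4, Bowtie2 2.2.5, RSEM 1.2.12, DESeq2 1.4.5 and build GRCm38.p6, with no role or order, and whether reads were counted by strand was not given. A second table holds the authors' own comparisons per transcript (log2 fold changes and p-values) and was not used. Library numbers are those of the count table's headers, which are not the replicate numbers of the titles.

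Estimated counts were rounded, genes were kept by edgeR's filterByExpr (11177 kept, 6033 left out), and libraries were scaled by TMM. Differences were tested with the quasi-likelihood F-test of edgeR 4.0.16 in R 4.3.3 on one mean per group over all 12 libraries, with Benjamini-Hochberg adjustment over all genes tested and a threshold of 0.05. SEs were derived from each log2 fold change and its F statistic. Fold over 1.5 was the size criterion. The level of 3 counts came to 0.157 CPM in Vector+EST, the denominator used where no Vector+EST library was above 3 counts, which gives lower bounds for counting error only. Library totals ran from 18700959 to 19152281 counts.

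The members and the 23 gene lists were chosen with earlier results of these data known, so lists are given as counts and medians without a test. Named genes were 25 set genes, the 10 largest rises and falls past the threshold without overlap between groups and averaging 3 or more in log2 CPM (10 further falls without predicted models), up to 3 rises and 3 falls past the threshold in each list, the 5 largest interactions in each direction among genes past the threshold with EST too and averaging 3 or more in log2 CPM (for Clca3a1 and Arl4d that call was lost in 7 and 5 of 12 fits without 1 library), and markers of other cell types; some are not reported here, and other called members are named within their lists. Positions and promoters are RefSeq's for GRCm38.p6. Overlapping genes, such as Spns2 with Mybbp1a, Stat2 with Apof, Nab2 with Stat6 and Myh7b with Trpc4ap, may share reads. Alternatives were DESeq2 1.42.0, RLE scaling, library totals alone, other filters and fold criteria, the 6 EST libraries alone, each library left out, a block on the header numbers and, chosen after seeing the data, SREBP2+EST 1 and Vector+EST 5 left out together. Numbers 1 and 5 occur in both EST groups. Deviations of same-numbered libraries from their group means correlated at 0.0598 and 0.0408, within the range of the other pairs (-0.0533 to 0.0612), so the numbers were not taken to pair the libraries. The procedure was tested on simulated counts.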

Additional observations from a re-analysis of the deposited data

Results flagged for a closer look

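The SREBP2 effects with and without EST differed, by the test of that difference itself, for 6591 of the genes tested, and 10 are given with their values, the 5 largest differences in each direction among genes that also passed with EST and averaged 3 or more in log2 CPM. The differences are log2 values, with EST minus without EST. Il4ra (4.16 ± 0.18), Nab2, a corepressor of EGR factors (3.18 ± 0.12), Clec10a, a lectin receptor (2.95 ± 0.20), Clca3a1 (2.75 ± 0.14) and Reep6, an endoplasmic reticulum shaping protein (2.67 ± 0.15), had more positive effects with EST. Their means in Vector, SREBP2, Vector+EST and SREBP2+EST were 60.3 ± 2.36, 5.46 ± 1.17, 3.48 ± 0.491 and 5.63 ± 0.379 CPM for Il4ra and 112 ± 3.53, 37.4 ± 5.37, 17.8 ± 0.966 and 37.8 ± 6.40 CPM for Reep6 (SD, n = 3). Btn1a1, a butyrophilin (-4.29 ± 0.08), Arl4d, a small GTPase (-4.18 ± 0.13), the connexin gene Gja6 (-3.68 ± 0.12), Btg2, an antiproliferative gene (-3.31 ± 0.08), and Slc46a3, a lysosomal transporter (-3.21 ± 0.11), had more negative effects with EST. Btn1a1 stood at 3.07 ± 0.276, 73.7 ± 1.52, 62.4 ± 1.66 and 76.4 ± 2.25 CPM in the same order. Vector had the highest mean of the 4 groups for the first 5 genes and the lowest for the other 5. With EST, Clec10a stood at 1.71 ± 0.0833 CPM with vector and 10.4 ± 1.17 CPM with SREBP2. All 10 differences kept their sign and their call in every alternative in which they were tested.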

How the results depend on the processing

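Leaving out 1 of the 12 libraries at a time gave between 1773 and 3084 genes past the threshold, 510 to 1286 lower and 16 to 38 lower over 1.5-fold, the lowest without Vector+EST 3 and the highest without SREBP2 1. Library totals alone gave 1768 lower genes, a filter of 10 counts in every library 9 genes lower over 1.5-fold, a fold criterion of 1.2 gave 1082 higher and 171 lower genes and a criterion of 2 gave 312 higher genes. Under library totals, list medians moved to 1.86 (cholesterol), 0.52 (sterol sensing), 0.19 (PPAR), -0.30 (S phase), -0.12 (mitosis) and 0.072 (JAK-STAT). Without SREBP2+EST 1 and Vector+EST 5 together, an alternative chosen after seeing the data, they were 0.52 (sterol sensing), 0.13 (efflux), -0.0535 (genes lowered by GATA1), 0.37 (myeloid), -0.21 (ribosome biogenesis), 4.86 (stromal) and -0.76 (neural). Over the fits without SREBP2+EST 1, without Vector+EST 5 or without both, the ranges were 1.88 to 1.96 (cholesterol), 0.52 to 0.56 (sterol sensing), 0.081 to 0.13 (efflux), 0.20 to 0.32 (PPAR), -0.0535 to 0.0517 (genes lowered by GATA1), 0.36 to 0.46 (myeloid), -0.21 to -0.13 (ribosome biogenesis), 0.31 to 0.52 (interferon), 0.57 to 4.86 (stromal) and -0.76 to -0.55 (neural). Over the 6 fits without 1 EST library, the medians that reached beyond these ranges ran from 0.53 to 0.59 (sterol sensing), 0.05 to 0.11 (efflux), -0.01 to 0.15 (genes lowered by GATA1), 0.36 to 0.60 (myeloid), -0.21 to -0.06 (ribosome biogenesis), 0.31 to 0.54 (interferon), 0.16 to 4.85 (stromal) and -0.68 to 0.12 (neural, -0.36 with all libraries). The cause was not tested.

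A replicate block on the shared header numbers 1 and 5 gave 1208 genes past the threshold, 1005 higher and 203 lower, and 13 lower over 1.5-fold, and 8 of the 30 genes lower over 1.5-fold and 195 of the 888 lower genes were still called. These numbers are not the replicate numbers of the titles, and the labels do not say what they stand for. The 2 same-numbered pairs of EST libraries are too few to show whether the numbers pair the libraries. Under the block the signs of Klf1 (0.0296), Epor (0.0444) and Hbb-b1 (0.0107), none past the threshold, reversed. Over the fits without 1 library Klf1 ran from -0.0635 to 0.0360, Epor from -0.0987 to 0.0574, Hbb-b1 from -0.0942 to 0.0036 and Myc from -0.14 to 0.18 log2 units. Over all alternatives for single named genes, 2091 values kept their direction and their side of the threshold, 142 fell short of it, 5 newly passed it and 10 reversed. Depth limits what can be said of genes under 3 counts in a library.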

Other observations

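Of 28 genes of the unfolded protein and stress response, 5 were higher and 0 lower with SREBP2 and EST, with a median log2 fold change of 0.06. The higher share is near the 14.0% of all genes tested, and 4 were higher and 2 lower under library totals. Trib3, a pseudokinase that ATF4 induces, stood at 3.36, 3.12 and 2.64 CPM against 1.55, 2.04 and 1.65 CPM (1.74-fold, adjusted p = 0.00416). Ddit4, an inhibitor of mTOR signaling, stood at 6.55, 5.06 and 6.03 CPM against 3.09, 3.76 and 3.87 CPM (1.64-fold, adjusted p = 0.00109), and the co-chaperone gene Dnajc3 rose by 0.48 log2 units (adjusted p = 3.11e-07). The Trib3 call was lost under the block on header numbers (adjusted p = 0.0604). Atf4 itself and the chaperone gene Canx were the other higher genes.

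Of the marker lists of other cell types, 9 stromal genes were tested, with 1 higher (Pdgfrb) and 1 lower (Thy1), against 14.0% and 7.94% of all genes. Without Vector+EST 5, 6 were higher and 1 lower and the median log2 fold change moved from 0.56 to 4.85. There were 10 neural genes, with 1 higher (Tubb3) and 2 lower, among them Gfap, against the same shares of all genes. The Tubb3 call was lost in 5 of the 12 fits without 1 library, those without SREBP2+EST 1, 2 or 5 or Vector+EST 1 or 5 (adjusted p up to 0.107). Pdgfrb, a growth factor receptor of mesenchymal cells, stood at 9.15, 5.33 and 5.01 CPM against 0, 0.0523 and 0.159 CPM, so it did not follow the library split of Col1a1. Of lymphoid markers 3 were tested and 0 passed, of embryonic stem cell markers 1 was tested and 0 passed, and no mitochondrially encoded gene is in the table used here. At an unadjusted p under 0.05, 3779 of all genes tested differed.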
